A study of Mus musculus with 6 samples.

Results

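The Zfp genes of the mouse are the genes whose symbol is Zfp followed by a number, most of which encode proteins with zinc fingers, small folds held by a zinc ion that read DNA or RNA. They were followed in primary aortic endothelial cell cultures of transgenic mice and of non-transgenic mice. A gene was included when its symbol in the array annotation had that form and when the mean of its brightest probe set over all 6 arrays reached a log2(signal + 16) of 7.72, which is the median over the non-control probe sets. Of 336 Zfp genes on the array 285 met this, and 51 lay under the median, out of 18193 genes in all, of which 11208 met the same level and were tested. The members were thus chosen by their level over all arrays, and the difference between the groups was not used. Of the members, 11 reached it with a transgenic mean under the limit and 1 with a non-transgenic mean under it, Zfp185 and Zfp423 among the 11, so that their place among the members rests on the other group. Just inside the limit were Zfp182, Zfp595 and Zfp668, at 7.74, 7.76 and 7.83, and just outside it Zfp777, Zfp850 and Zfp712, each at 7.69.

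The transgenic mice carried the V290M form of human PPARG, a dominant negative form of this fatty acid-sensing nuclear receptor, under the endothelial promoter of CDH5, and the controls were non-transgenic mice. All were of a strain given as C57, and the cells of both groups were untreated. In each group the cells of 10 mice were grown as 5 cultures, each pooled from 2 mice, and RNA of 3 cultures per group was arrayed, so that n = 3 separate cultures in each group. The sources used here state no age of the animals.

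A large subclass of Zfp proteins joins an array of C2H2 zinc fingers to a KRAB box. The KRAB box binds the corepressor Trim28, which brings in the histone methyltransferase Setdb1 and HP1 proteins, and the main known targets of this system are transposable elements and imprinted regions. Other Zfp proteins have no such box and work as activators, as partners of histone-modifying complexes, as ubiquitin ligases, in ribosome assembly or, with CCCH fingers, in the decay of messenger RNA. Zfp genes of the KRAB type are commonly found in genomic clusters that grew by duplication.

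Promoter windows, from 250 bases before to 50 bases after the start of transcription, were found for 232 of the 285 members in the RefSeq table of build GRCm38.p6, of which 189 had a single window. The 250 bases before the start are shown for Zfp383, Zfp329 and Zfp882, the 3 members with the smallest unadjusted p among those that lay lower in the transgenic cultures and had a single window, as examples of the lower members described further on. Capitals mark motifs found on either strand, namely CCGGAAGT (ETS factors), AAGATGGC (YY1), GGGCGG (the GC box), CCAAT and AGGTCA (the nuclear receptor half-site). The windows lie at chr7:29908267-29908516 (+ strand), chr7:12818861-12819110 (- strand) and chr8:71908356-71908605 (+ strand), and each is written 5′ to 3′ on the strand of its gene.
Zfp383: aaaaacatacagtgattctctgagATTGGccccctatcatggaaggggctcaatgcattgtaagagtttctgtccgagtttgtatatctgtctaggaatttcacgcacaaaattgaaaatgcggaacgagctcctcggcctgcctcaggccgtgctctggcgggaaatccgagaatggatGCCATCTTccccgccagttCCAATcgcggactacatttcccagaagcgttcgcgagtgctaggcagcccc
Zfp329: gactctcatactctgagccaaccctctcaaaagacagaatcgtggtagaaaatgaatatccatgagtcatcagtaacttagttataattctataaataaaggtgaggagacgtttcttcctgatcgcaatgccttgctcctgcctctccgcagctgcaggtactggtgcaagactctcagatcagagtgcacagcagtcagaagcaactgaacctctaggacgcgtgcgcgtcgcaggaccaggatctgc
Zfp882: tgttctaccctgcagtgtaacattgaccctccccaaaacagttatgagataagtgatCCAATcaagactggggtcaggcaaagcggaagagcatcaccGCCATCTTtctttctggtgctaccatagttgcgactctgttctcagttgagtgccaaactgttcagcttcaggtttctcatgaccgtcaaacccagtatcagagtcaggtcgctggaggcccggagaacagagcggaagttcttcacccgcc

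The Zfp383 window held a CCAAT box starting 226 bases and another starting 51 bases before the start, and a YY1 motif at 70 bases. The Zfp882 window held a CCAAT box at 193 bases and a YY1 motif at 152 bases, and the Zfp329 window held none of the 5 motifs. Over the whole windows, the ETS motif was found in 10.8% of the 232 members, against 4.31% of the 27025 genes of the promoter table, and the YY1 motif in 6.03% against 3.19%. A GC box was found in 52.6% of members, against 38.2% of all genes, and a CCAAT box in 50.4% against 41.1%. The nuclear receptor half-site AGGTCA was less frequent, at 13.4% of members against 18.1% of all genes. The element of PPARG with its partner RXR, searched on both strands as 2 copies of this half-site with 1 base of any kind between them, was found letter for letter in 0 of 232 members and in 13 of all 27025 genes. For base composition each gene was given the highest value among its windows, for GC and for CpG separately. The median GC content was then 56.0% over members, against 53.3% over all genes. The median ratio of observed to expected CpG was 0.694, against 0.415. These motifs are matches of letters and not measured binding sites, and richness in GC and CpG itself bears on how often GC-rich motifs occur. The members were also chosen by their level and the genes of the promoter table were not. In these shares the family and the choice by level cannot be told apart.

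The arrays had one shared scale, with a trimmed mean signal of 1492.9 to 1494, but their medians differed, at 183.6, 186.1 and 173 in the transgenic and 220.5, 219.9 and 222.9 in the non-transgenic cultures. For the Gapdh controls the 3′ signal over the 5′ signal was 1.35, 1.20 and 1.44 in the transgenic and 1.71, 1.55 and 1.51 in the non-transgenic cultures, without overlap. Transgenic replicate 3 stood apart from transgenic replicates 1 and 2 and lay nearer to the non-transgenic cultures for many genes, the cycling cell markers below among them. In array median and Gapdh ratio it lay with its own group, but not in the same ratio of the beta-actin controls. That ratio was 1.74, 1.40 and 2.21 in the transgenic and 2.17, 2.00 and 1.83 in the non-transgenic cultures. Transgenic replicate 3 thus had the highest beta-actin ratio of all 6. Over all genes tested this culture was above the non-transgenic range for 38.4% and below it for 22.3%. Its label is in question because it stood apart from its group. The label was kept as given, since the transgene was not checked here, and every group difference below rests on it. Values without transgenic replicate 3 are given for named members whose call they change. Other named differences moved by over 1.5 times without it, and not all of those values are given. Of 12 endothelial markers 5 reached the level limit on average, namely Cd34, Eng, Flt1, Emcn and Tek, and 7 did not, while all 7 fibroblast markers lay above it. Of the fibroblast markers 5 lay lower and 2 higher in the transgenic cultures. Dcn differed by -1.44, Lum by -1.53 and Thy1 by 0.90 (limma adjusted p = 0.428 each). Of 5 smooth muscle markers 3 reached the limit on average, namely Acta2 (13.80 in transgenic and 13.85 in non-transgenic cultures), Tagln and Smtn. Flt1 averaged 11.56 in transgenic and 10.55 in non-transgenic cultures and Eng 11.57 and 11.45. Cdh5, whose promoter drives the transgene, averaged 6.09 in transgenic and 6.97 in non-transgenic cultures, Pecam1 6.14 and 5.67, and Nos3 7.42 and 6.80, all under the limit. The mean level of 9 cycling cell markers was 12.2, 12.6 and 10.3 in the transgenic and 10.8, 9.89 and 9.85 in the non-transgenic cultures. That of 5 adipocyte markers was 8.81, 7.84 and 9.60 in the transgenic and 11.5, 9.95 and 9.86 in the non-transgenic cultures. That of 8 leukocyte and macrophage markers was 7.32, 8.95 and 6.58 in the transgenic and 6.79, 6.51 and 7.19 in the non-transgenic cultures. Only Csf1r and Cd53 of these reached the level limit on average. Csf1r was at 11.03, 10.49 and 10.59 in the transgenic and 8.94, 9.06 and 8.61 in the non-transgenic cultures (limma adjusted p = 0.428). Cd53 was at 12.65, 13.29 and 8.43 in the transgenic and 10.41, 8.60 and 7.74 in the non-transgenic cultures. Over all 8 markers 1 lay lower and 7 higher. The part of these markers, of the Gapdh ratio and of the array medians in the values below was not tested beyond the alternatives given, and in RNA of whole cultures fewer cells of a type and less RNA per cell cannot be told apart.

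Most Zfp genes lay lower in the transgenic cultures, by a small amount, and no single one passed the test. Of the 285 members 234 (82.1%) had a difference below 0 and 51 above 0, with a median log2 difference of -0.29, whereas 52.5% of all 11208 genes tested lay below 0, with a median of -0.02. The middle 50% of members lay between -0.51 and -0.09, against -0.26 and 0.22 for all genes. Only 10 members lay lower by more than 1 on the log2 scale and 1 lay higher by more than 1, while 95 differed by less than 0.2 in size. Each difference is the transgenic mean minus the non-transgenic mean of log2(signal + 16), and the added 16 shrinks the change of genes with low signal.

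**Figure D1:**
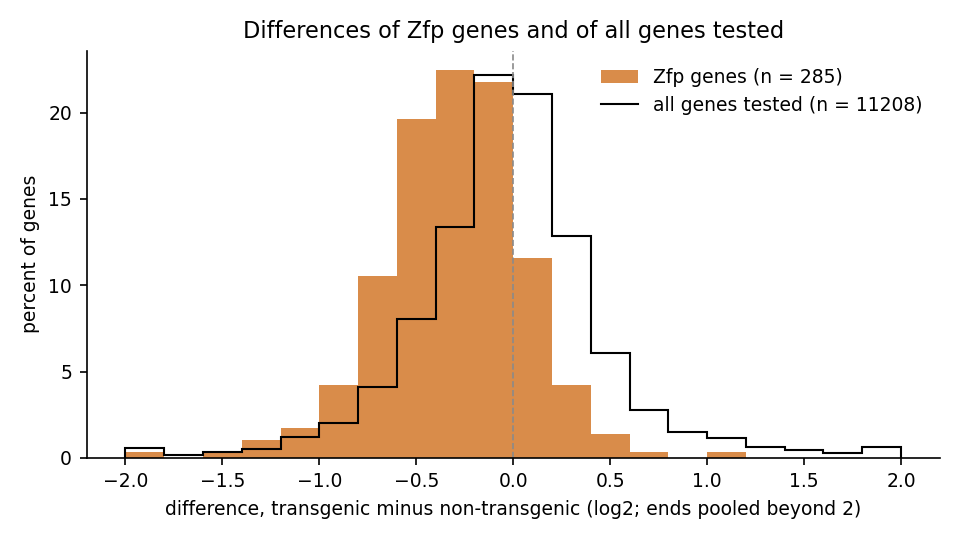
Percent of genes (vertical) by log2 difference, transgenic minus non-transgenic (horizontal, bins of 0.2, with values beyond 2 pooled in the end bins), for 285 Zfp genes as filled bars and for 11208 genes tested as a line. The Zfp genes are shifted to the left, with a median of -0.29 against -0.02.

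limma called 0 of 285 members at a Benjamini-Hochberg adjusted p of 0.05, where the share called over all genes tested was 0%, and the smallest adjusted p of a member was 0.428. An unadjusted p under 0.05 was found for 25 members that lay lower (8.77%, against 5.02% of all genes) and for 1 that lay higher (0.351%, against 6.47%). All 3 transgenic cultures lay below every non-transgenic one for 36 members (12.6%, against 6.72% of all genes), and above every one for 3 (1.05%, against 9.39%). The members share their cultures and are not replicates of a condition, so these counts describe them and do not test a group effect.

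How far the members lie below 0 depends on the scale of the arrays, and their distance from other genes less so. With each array centred on its own median, the median over all genes tested was 0.25, the members' median was -0.02, and 147 of 285 members (51.6%) lay below 0, against 24.7% of all genes. Centring moves every gene of an array by the same amount. The members' median relative to that of all genes, -0.27, therefore could not differ between these 2 scales. It was -0.20 after quantile normalization, -0.21 with the Gapdh ratio as a covariate and -0.22 with the beta-actin ratio, and between -0.36 and -0.20 with any 1 culture left out. With the Gapdh ratio as a covariate 159 of 285 members lay below 0. That ratio did not overlap between the groups, so the fit cannot fully tell ratio and group apart, here and for the genes below. Leaving out transgenic replicate 2 moved the members' own median to -0.18, with 206 of 285 below 0.

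**Figure D2:**
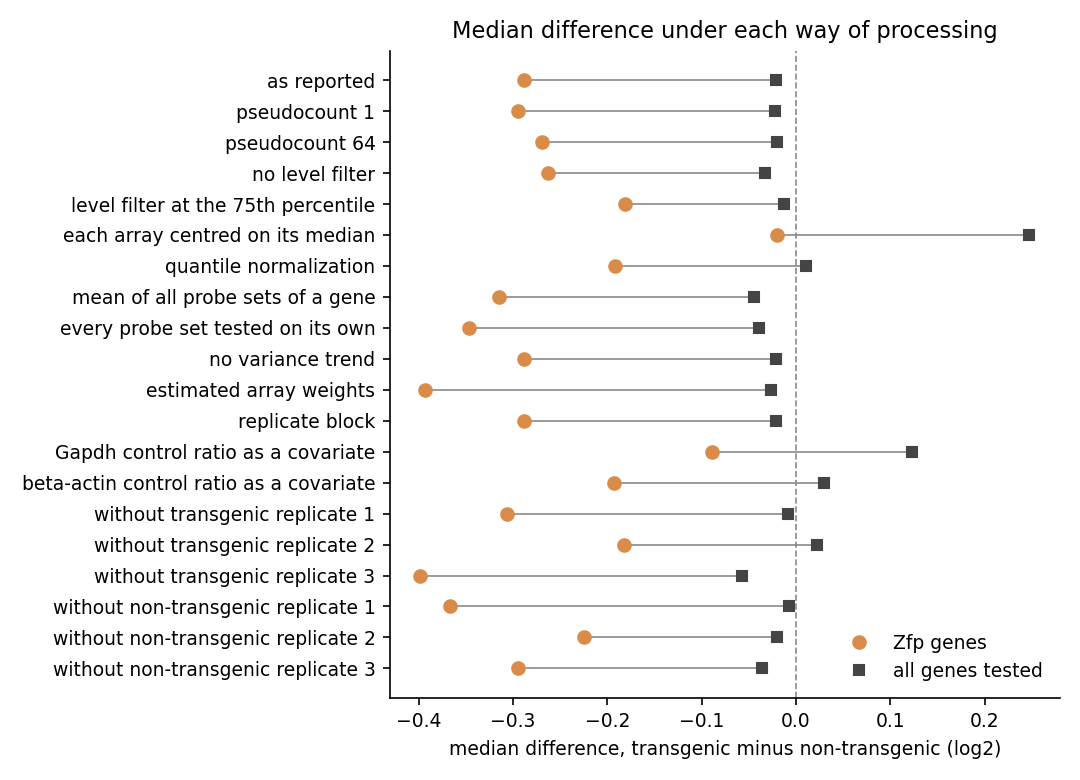
Median log2 difference, transgenic minus non-transgenic (horizontal), of Zfp genes as circles and of all genes tested as squares, under each way of processing (rows). In every row the circle lies left of the square, although both move when arrays are centred on their medians, to -0.02 and 0.25.

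Culture by culture, the shift was seen in transgenic replicates 1 and 2 and less in replicate 3. The members' median deviation from the non-transgenic mean was -0.31, -0.50 and -0.05 in the transgenic cultures, and -0.14, 0.13 and 0.04 in the non-transgenic ones. Relative to the median of all genes on the same array it was -0.29, -0.42 and -0.14 in the transgenic and -0.16, 0.12 and 0.06 in the non-transgenic cultures. Transgenic replicates 1 and 2 therefore lay below all 3 non-transgenic cultures, while transgenic replicate 3 lay within their range, beside non-transgenic replicate 1. Below the non-transgenic mean were 215, 240 and 156 of the 285 members in the transgenic cultures, and 203, 62 and 125 in the non-transgenic ones.

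Transgenic replicates 1 and 2 were both below every non-transgenic culture for 126 members (44.2%, against 27.4% of all genes) and both above for 16 (5.61%, against 22.8%). Of these 126, transgenic replicate 3 was inside the non-transgenic range for 40 and above it for 50, shares of 31.7% and 39.7%, close to the 35.8% and 39.6% found for all genes of this pattern. Members thus fell into 36 that were low in all 3 transgenic cultures and more that were low in replicates 1 and 2 only.

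**Figure D3:**
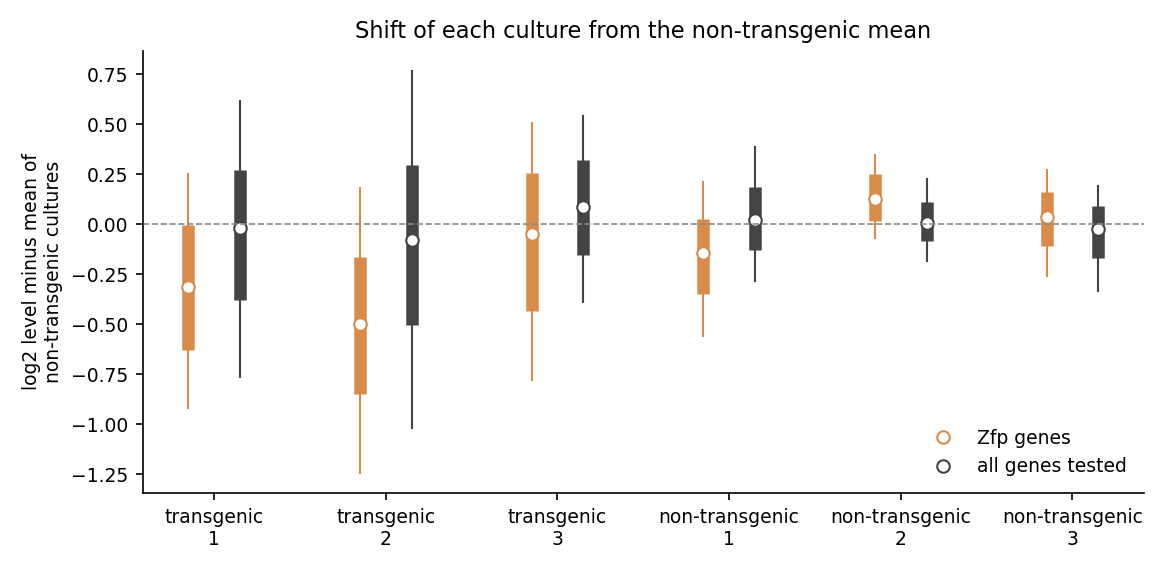
Log2 level minus the mean of the non-transgenic cultures (vertical) in each culture (horizontal), for 285 Zfp genes and for all genes tested. Circles are medians, thick bars the middle 50% and thin lines the middle 80% of genes. The Zfp medians of the transgenic cultures are -0.31, -0.50 and -0.05.

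Without transgenic replicate 3, limma called 30 of 285 members at an adjusted p of 0.05 (10.5%, against 14.7% of all genes), 26 lower (9.12%, against 7.83%) and 4 higher (1.40%, against 6.88%). The share of members called was thus no larger than that of other genes, and the calls leaned to the lower side. With estimated array weights 145 members were called (50.9%, against 49.1%), 135 lower (47.4%, against 26.3%) and 10 higher (3.51%, against 22.8%).

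The shift was found at every level of signal, with the larger values in dim genes. Members with a mean level between 8.5 and 9.5 had a median difference of -0.40 (n = 80), against -0.09 for all genes in that range, and members between 11.5 and 12.5 had -0.23 (n = 29), against 0.02. At 12.5 and above 12 of 15 members lay below 0, with a median of -0.14 against -0.02. Signals of different probe sets also depend on how well each binds, so the ranges order probe sets and not transcripts.

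Members with and without neighbouring Zfp genes had similar values, which were not tested against each other. Going by the order of protein-coding genes in the RefSeq table, 145 members had at least 1 Zfp gene as a direct neighbour, and their median difference was -0.32, with 118 (81.4%) below 0. The 136 members with none had a median of -0.26, with 112 (82.4%) below 0. Of the 100 members with 2 or more probe sets above the level limit, 70 had all of them lower, 3 all of them higher and 27 had probe sets of both signs. Over all 424 probe sets of members above the limit 355 lay lower.

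The members with the smallest unadjusted p among those below 0 were Zfp932, Zfp383, Zfp329, Zfp788, Zfp40, Zfp882, Zfp458, Zfp763, Zfp101 and Zfp33b, each with a limma adjusted p of 0.428. Zfp932, a KRAB protein that silences endogenous retroviruses, was at 9.74, 9.55 and 9.91 in the transgenic cultures and at 10.24, 10.86 and 10.73 in the non-transgenic ones. The groups did not overlap, and the difference of -0.88 ± 0.25 (SE, n = 3 per group) is a 1.84-fold lower signal (limma adjusted p = 0.428, and 0.0419 without transgenic replicate 3). Zfp383, whose promoter is shown above, was at 9.05, 8.86 and 9.18 in the transgenic cultures and at 9.55, 10.21 and 10.24 in the non-transgenic ones. Its groups did not overlap either, with a difference of -0.97 ± 0.28 (SE, limma adjusted p = 0.428, and 0.0479 without transgenic replicate 3).

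Zfp329 was at 10.87, 10.77 and 10.73 in the transgenic cultures and at 11.24, 11.97 and 11.48 in the non-transgenic ones. The transgenic cultures were close to each other and all lower, by -0.77 ± 0.23 (SE, limma adjusted p = 0.428), and its other probe set above the limit differed by -0.83. Zfp882 was at 8.04, 7.51 and 8.42 in the transgenic cultures and at 8.60, 9.70 and 9.35 in the non-transgenic ones, a difference of -1.23 ± 0.39 (SE, limma adjusted p = 0.428, and 0.0416 without transgenic replicate 3). Its highest transgenic culture and lowest non-transgenic culture lay close together.

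The other 6 of these genes differed by -1.26 (Zfp33b) to -0.77 (Zfp763). In all 10 the groups were without overlap, a pattern that a choice by small p favours. In 8 of the 10, non-transgenic replicate 1 was the lowest of the non-transgenic cultures, as it was for the members' median. Their differences stayed below 0 in all 180 values that the alternatives gave for these genes, ranging from -2.23 to -0.49. For groups without overlap this sign is fixed in advance when 1 culture is left out or arrays are weighted. Centring and the Gapdh covariate are not bound in that way, but the genes were chosen from these same arrays.

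**Figure D4:**
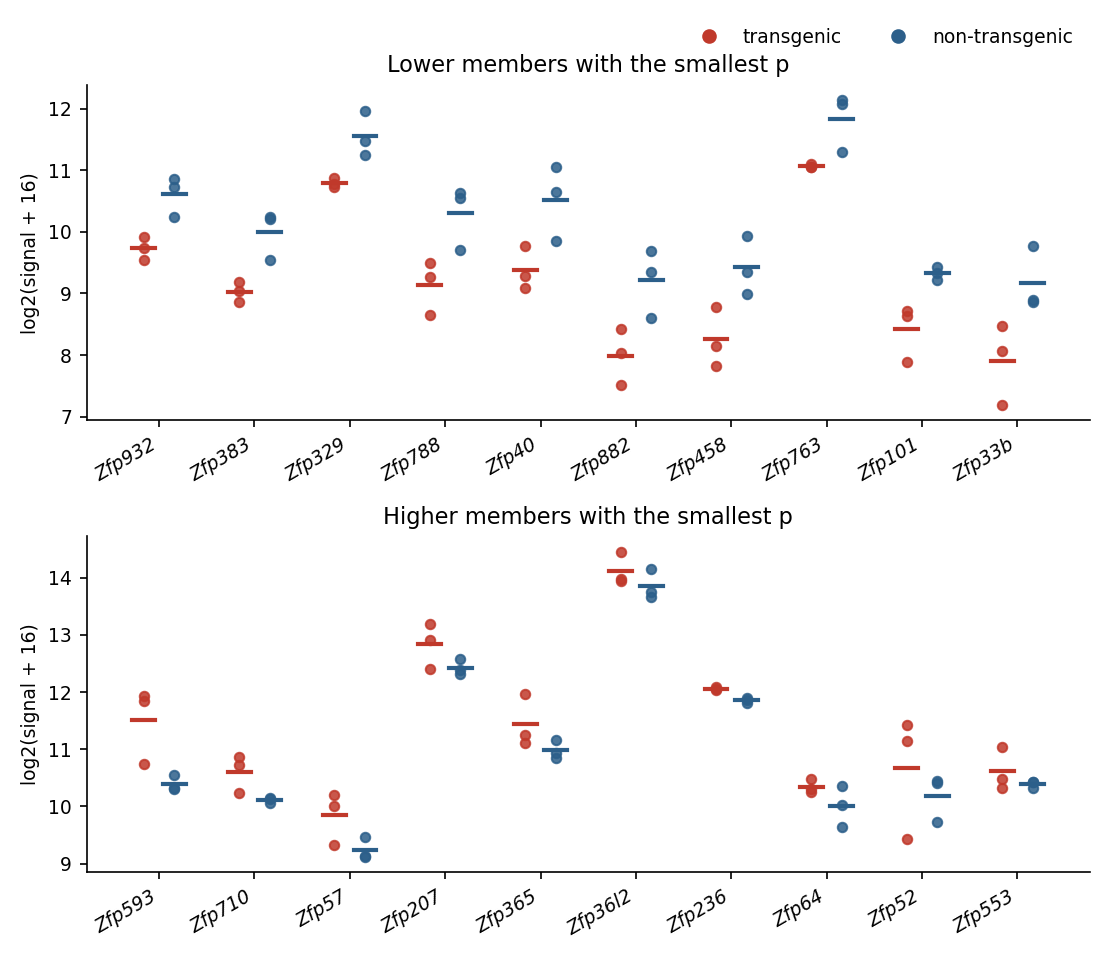
Log2(signal + 16) (vertical) in each culture for the 10 lower and the 10 higher Zfp genes with the smallest unadjusted p (horizontal), transgenic to the left and non-transgenic to the right of each gene. Points are cultures and bars are group means of 3. In the upper panel all transgenic points lie below the non-transgenic ones, and in the lower panel the groups of most genes overlap.

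Few members lay higher. Zfp593, the homologue of a yeast factor that accompanies the large ribosomal subunit out of the nucleus, was at 11.94, 11.85 and 10.74 in the transgenic cultures and at 10.30, 10.33 and 10.55 in the non-transgenic ones. All transgenic cultures lay above, replicate 3 by little, and the difference was 1.11 ± 0.33 (SE, limma adjusted p = 0.428). Without transgenic replicate 3 it was 1.50 ± 0.19 (SE), a 2.83-fold higher signal that passed the test (limma adjusted p = 0.00529). It was read by an _x_at probe set, a kind that can bind related sequences, and its other probe set differed by 0.11.

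Zfp710 was at 10.23, 10.72 and 10.87 in the transgenic cultures and at 10.13, 10.15 and 10.06 in the non-transgenic ones, a difference of 0.49 ± 0.24 (SE, limma adjusted p = 0.451). Zfp57, the KRAB protein that guards imprinted methylation in embryos, was at 10.01, 10.20 and 9.32 in the transgenic cultures and at 9.47, 9.13 and 9.12 in the non-transgenic ones. Its groups overlapped through transgenic replicate 3, with a difference of 0.60 ± 0.30 (SE, limma adjusted p = 0.454). The other 7 of the 10 higher members with the smallest p were Zfp207, Zfp365, Zfp36l2, Zfp236, Zfp64, Zfp52 and Zfp553, with differences of 0.20 (Zfp236) to 0.48 (Zfp52). The other probe set above the limit lay below 0 for Zfp236 (-0.47), Zfp553 (-0.23) and Zfp36l2 (-0.05), and above 0 for Zfp64 (0.05). Zfp52 was higher by 1.10 ± 0.27 (SE) without transgenic replicate 3 and then passed (limma adjusted p = 0.0357, against 0.707 with it), while its other probe set differed by -0.13.

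Zfp207, which helps to load Bub3 on kinetochores in mitosis, was read in opposite ways by its probe sets. Its brightest probe set was at 12.92, 13.19 and 12.40 in the transgenic cultures and at 12.38, 12.31 and 12.58 in the non-transgenic ones, with a difference of 0.41 ± 0.22 (SE, limma adjusted p = 0.468, and 0.0365 at 0.63 without transgenic replicate 3). The 4 dimmer probe sets above the limit differed by -1.40, -1.13, -1.25 and -1.14. The mean over its probe sets was lower, by -0.83, so this gene has no settled direction.

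Silencers of imprints and retroelements differed among themselves. Of 5 such KRAB genes listed, Zfp932, Zfp445, Zfp809 and Zfp568 lay below 0 and Zfp57 above, and 0 passed the test (against 0% of all genes). Zfp445, which protects imprints together with Zfp57, was at 10.90, 10.51 and 10.84 in the transgenic cultures and at 11.23, 11.66 and 11.22 in the non-transgenic ones. The groups did not overlap, the difference was -0.62 ± 0.22 (SE, limma adjusted p = 0.428), and its other probe sets differed by -0.90 and -0.44. Zfp809, which silences retroviruses that carry a proline primer site, differed by -0.28 ± 0.28 (SE), within the spread between cultures. Without transgenic replicate 3 it differed by -0.51. Zfp568, a repressor of a placental Igf2 transcript, differed by -0.18 ± 0.23 (SE), and by 0.09 with arrays centred on their medians.

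The partners through which KRAB proteins repress were measured beside them. Of 30 genes listed for this pathway 27 were on the array and 25 were tested, with 18 below 0, 7 above 0 and 0 called (against 0% of all genes), and a median difference of -0.12 (0.15, with 3 below 0, when arrays were centred on their medians). That median was -0.05 without transgenic replicate 1 and -0.07 without transgenic replicate 2. Trim28, the KRAB corepressor, was at 12.37, 12.36 and 13.24 in the transgenic cultures and at 13.07, 12.85 and 12.52 in the non-transgenic ones. Its groups overlapped, with a difference of -0.16 ± 0.27 (SE, limma adjusted p = 0.816), and of -0.45 without transgenic replicate 3. The histone methyltransferase Setdb1 differed by -0.31 ± 0.26 (SE, limma adjusted p = 0.617).

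The pathway genes with an unadjusted p under 0.05 were Hdac2, a histone deacetylase, at -0.51 ± 0.18 (SE), and Dnmt1, the maintenance DNA methyltransferase, at 0.54 ± 0.21 (SE), each with a limma adjusted p of 0.428. Without transgenic replicate 3, limma called 3 of the 25, all higher, where 14.7% of all genes were called and 6.88% were called higher. These were Dnmt1 (0.76), its recruiter Uhrf1 (3.20) and the methyltransferase Suv39h2 (1.72). Suv39h2 lay under the level limit of 7.72 in transgenic replicate 3 and in every non-transgenic culture. Its place among the genes tested thus rests on transgenic replicates 1 and 2, and the size of its difference is uncertain. Uhrf1 was at 12.67, 13.43 and 9.74 in the transgenic cultures and at 11.03, 9.09 and 9.43 in the non-transgenic ones, and its 3 highest cultures, transgenic replicates 1 and 2 and non-transgenic replicate 1, were also the 3 highest for the cycling cell markers given above.

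Members linked to fat cell formation lay below 0 in 7 of 7, where 82.1% of all members did. Their median difference was -0.52, against -0.29 for all members, and 0 passed the test (against 0% of all genes). The count below 0 was 4 of 7 with arrays centred on their medians and 1 of 7 with the Gapdh ratio as a covariate, where the list's median was 0.33. The median was -0.18 without transgenic replicate 2 and -0.25 without non-transgenic replicate 1, with 6 of 7 below 0 in each. Zfp423, which commits precursor cells to fat upstream of Pparg, was at 7.99, 6.03 and 8.49 in the transgenic cultures and at 9.85, 8.72 and 8.17 in the non-transgenic ones. Transgenic replicate 3 lay above the lowest non-transgenic culture, and the difference of -1.41 ± 0.69 (SE, limma adjusted p = 0.451) became 1.02 with the Gapdh covariate. Its transgenic mean of 7.50 lies under the level limit, so it is among the 7 through its non-transgenic level. Without transgenic replicate 3 the difference was -1.90 (limma adjusted p = 0.0872).

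Zfp521, an inhibitor of the same commitment step, was at 11.35, 10.34 and 12.45 in the transgenic cultures and at 12.37, 12.39 and 12.28 in the non-transgenic ones. The non-transgenic cultures lay close together, and transgenic replicate 3 lay above them. The difference was -0.96 ± 0.46 (SE, limma adjusted p = 0.449), and without that culture -1.50 ± 0.28 (SE), which passed (limma adjusted p = 0.0145). Its other probe set differed by -1.15, and the difference was 0.33 with the Gapdh covariate.

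Zfp638, an RNA-binding cofactor of early fat cell formation, was at 11.43, 11.04 and 10.82 in the transgenic cultures and at 11.27, 12.19 and 11.84 in the non-transgenic ones, a difference of -0.66 ± 0.28 (SE, limma adjusted p = 0.434). Its lowest culture was transgenic replicate 3, unlike Zfp423 and Zfp521, which were lowest in replicate 2. Zfp467, which favours fat over bone in marrow stroma, differed by -0.52, and by -0.80 without transgenic replicate 3. Zfp217, Zfp516 and Zfp407 differed by -0.22, -0.17 and -0.05 (0.04, 0.10 and 0.22 with arrays centred on their medians). The adipocyte markers given above were also lowest in transgenic replicate 2.

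**Figure D5:**
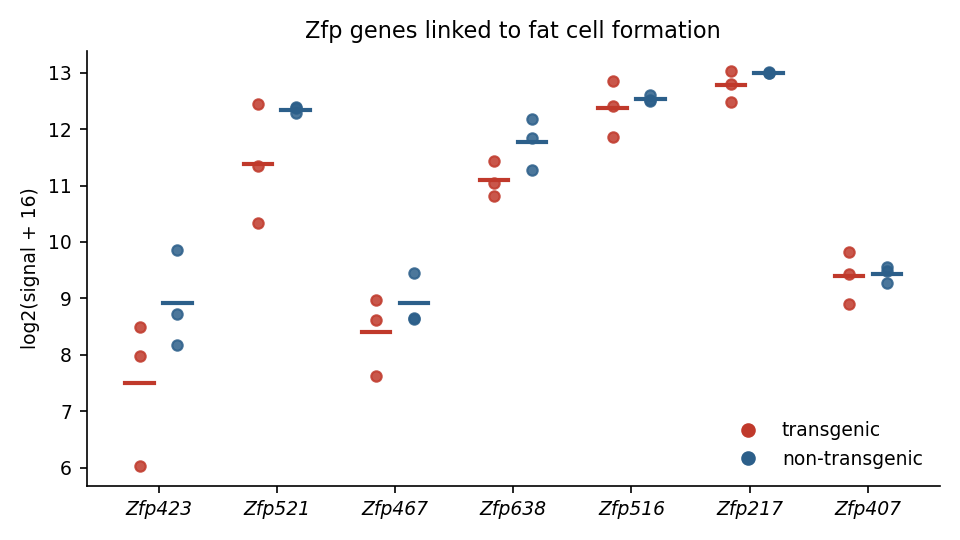
Log2(signal + 16) (vertical) of the 7 Zfp genes linked to fat cell formation (horizontal), transgenic to the left and non-transgenic to the right of each gene. Points are cultures and bars are group means of 3. Zfp423 and Zfp521 spread widely over the transgenic cultures, at 6.03 to 8.49 and 10.34 to 12.45.

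The CCCH members, which bind AU-rich elements and speed the decay of messenger RNA, were among the brightest. Zfp36, induced early by many stimuli, was at 13.46, 13.01 and 13.63 in the transgenic cultures and at 13.92, 13.69 and 13.54 in the non-transgenic ones, a difference of -0.35 ± 0.19 (SE, limma adjusted p = 0.474). Zfp36l1 was at 14.36, 14.13 and 14.23 in the transgenic cultures and at 14.40, 14.37 and 14.37 in the non-transgenic ones. Its groups did not overlap but differed by only -0.14 ± 0.10 (SE, limma adjusted p = 0.569), and by 0.13 with arrays centred on their medians. Its dimmer probe set above the limit, at a level of 10.11, differed by -0.76, so the size of its difference depends on the probe set. Zfp36l2 differed by 0.27 ± 0.19 (SE, limma adjusted p = 0.566), and its other probe set above the limit by -0.05.

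Zfp622, which acts in maturation of the large ribosomal subunit, and Zfp664 completed the 5 brightest members, with differences of -0.08 and -0.03, above 0 when arrays were centred. Their dimmer probe sets above the limit differed by 0.22 and 0.14 for Zfp622 and by -0.40 for Zfp664. The 9 tested members listed as ubiquitin ligases, ribosome factors or RNA-binding proteins had a median difference of -0.08, with 7 below 0, and all 9 lay above 0 when arrays were centred on their medians. That median was 0.0219, 0.0064 and 0.0059, with 4 of 9 below 0, without transgenic replicate 1, transgenic replicate 2 or non-transgenic replicate 1, and -0.15 without transgenic replicate 3. The GC-rich promoter binders Zfp148 and Zfp281 differed by -0.37 ± 0.27 and -0.12 ± 0.25 (SE), and Zfp281 by 0.15 when arrays were centred.

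The 8 members listed as partners of chromatin complexes all lay below 0 (4 of 8 when arrays were centred), where 82.1% of all members did. Their median was -0.24 (-0.38 without transgenic replicate 2), against -0.29 for all members. Zfp592, which with Zfp687 and Zfp532 forms a complex around Zmynd8, was at 11.24, 10.17 and 12.55 in the transgenic cultures and at 12.50, 12.46 and 12.11 in the non-transgenic ones. Transgenic replicate 3 was the highest of all 6, and the difference of -1.04 ± 0.52 (SE, limma adjusted p = 0.454) was -1.66 ± 0.31 (SE, limma adjusted p = 0.0142) without it. Zfp687 differed by -0.50 ± 0.37 (SE), and by -0.88 without transgenic replicate 3. Zfp644 and Zfp462, both known as partners of the G9a histone methyltransferase system, differed by -0.56 ± 0.28 and -0.33 ± 0.17 (SE).

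The members with the smallest p without transgenic replicate 3 had that culture at or above the level of the non-transgenic ones. Of the 8 lower members with the smallest p in that fit, Zfp592 and Zfp521 are given above, and the other 6 were chosen after their values were seen. Zfp185, a LIM domain protein of the actin cytoskeleton, was at 5.99, 6.43 and 9.28 in the transgenic cultures and at 8.95, 9.30 and 9.18 in the non-transgenic ones. Transgenic replicates 1 and 2 lay far below every other culture, and the difference was -1.91 ± 0.78 (SE, limma adjusted p = 0.428), or -2.93 without replicate 3, where it was among the calls. Those 2 cultures lie under the level limit of 7.72, so the size of this difference is uncertain and no fold is given. Zfp618, a partner of Uhrf2 at hydroxymethylated DNA, was at 9.36, 9.68 and 11.23 in the transgenic cultures and at 10.89, 11.17 and 10.98 in the non-transgenic ones.

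In the fit of all 6 cultures Zfp618 differed by -0.93, Zfp651 by -1.10 and Zfp362 by -0.77 (limma adjusted p = 0.454, 0.487 and 0.542). Without replicate 3 they were called, at -1.50, -1.86 and -1.40 (limma adjusted p = 0.0073, 0.00869 and 0.0122), so that 1 culture decides each call. The developmental corepressor Zfp503 fell by 1.03 in that fit (limma adjusted p = 0.0142). Zfp703, its close relative and a known oncogene of the human breast, was called too, at -1.15. In the fit of all 6 cultures Zfp503 differed by -0.64 ± 0.33 and Zfp703 by -0.63 ± 0.44 (SE, limma adjusted p = 0.467 and 0.562).

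Most tested Zbtb, Zscan and Zkscan genes, of other zinc finger families, lay lower as well, and the Zc3h genes lay nearer to all genes. Of 36 tested Zbtb genes, whose proteins pair C2H2 fingers with a BTB domain, 28 lay below 0, with a median difference of -0.21, and of 14 Zscan and Zkscan genes 12 did, with a median of -0.38. The Zc3h genes, with CCCH fingers, had a median of -0.12, with 10 of 16 (62.5%) below 0. Of all genes tested 52.5% lay below 0, with a median of -0.02. With arrays centred on their medians 14 of 36 Zbtb, 10 of 14 Zscan and Zkscan and 4 of 16 Zc3h genes lay below 0, against 24.7% of all genes. On either scale limma called 0 genes of these families (against 0% of all genes). With 1 culture left out the medians ranged widely, down to -0.37, -0.69 and -0.23 without transgenic replicate 3, and the Zbtb median was -0.12 without transgenic replicate 1, the Zscan and Zkscan median -0.15 without transgenic replicate 2 and the Zc3h median -0.04 without transgenic replicate 1 or non-transgenic replicate 1. The differences between these families and the Zfp genes were not tested.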

How the data were processed

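RNA of 6 cultures was hybridised to Affymetrix mouse genome arrays after amplification of about 50 ng of total RNA, per the labels. The deposited values are linear intensities, 1 for each probe set on each array. The submitters' processing notes name MAS5, and the sources used here state neither its version nor a genome build. The authors' scaling was kept.

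Of 45101 probe sets, 64 were controls, 34945 had 1 gene symbol in the array annotation, 932 had several and 9160 had none. Only those with 1 symbol were used, and 27 probe sets naming a Zfp gene among several genes were left out. Values were taken as log2(intensity + 16). Each gene was read by its brightest probe set (mean of 6 arrays), and 11208 genes at or above the median of probe sets that are not controls (a signal of 194.3) were fitted in R 4.3.3 with limma 3.58.1 (lmFit, eBayes with trend), two-sided, with Benjamini-Hochberg adjustment over all of them at 0.05. SE are limma's moderated ones. The fit was checked on simulated data. The number of arrays limits the precision.

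Every member has the same symbol in RefSeq's mouse table (GRCm38.p6), and 281 of 285 are protein coding there. Protein sequences were not used here, so KRAB boxes were not counted. Genes named are the 10 lower and 10 higher members with the smallest p, the 5 brightest, members of role lists and, chosen after seeing values, 6 called without transgenic replicate 3. Members, lists and tests were chosen with earlier results of these data known. Alternatives were other pseudocounts, filters, scalings, probe set rules, priors, array weights, control ratios as covariates, the replicate number as a block, and each array left out.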

Additional observations from a re-analysis of the deposited data

How the results depend on the processing

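With 3 cultures per group and 1 of them apart from its group, small differences in single members could not be called, and a missed threshold does not show that levels were equal. Members called numbered 0 as reported, 145 of 285 with estimated array weights and 0 to 30 with 1 culture left out, and genes called over all tested 0, 5504 and 0 to 1649. All 30 and 1649 calls came without transgenic replicate 3. The members' median difference of -0.29 (spread between cultures 0.19) was -0.0202 with arrays centred on their medians, -0.0885 with the Gapdh ratio as a covariate, between -0.40 and -0.18 with 1 culture left out, and moved by less than the spread under every other alternative. With the replicate number as a block it was -0.29, with 0 members called. Same-numbered cultures showed no common deviation (correlations over genes of 0.0421, -0.278 and -0.0336, none the best of its transgenic culture). Deviations from means of 3 cultures are bound to each other, so these values cannot decide whether cultures were paired. The main fit used no pairing.

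Of 851 alternative values of 46 named members, 764 kept sign and call, 46 gained a call (32 with array weights, 14 without transgenic replicate 3) and 41 changed sign. The causes were not tested. With the Gapdh ratio as a covariate differences became -0.12 (Zfp207), -1.06 (Zfp52), 0.23 (Zfp36), 0.25 (Zfp622), 1.02 (Zfp423), 0.33 (Zfp521), 0.80 (Zfp467), 0.10 (Zfp217), 0.0061 (Zfp516), 0.66 (Zfp407), 0.54 (Zfp592), 0.0239 (Zfp687), 0.24 (Zfp362), 0.30 (Zfp503) and 0.10 (Zfp703). With the beta-actin ratio they became -0.0587 (Zfp52), 0.0155 (Zfp622) and 0.19 (Zfp407). With arrays centred they became 0.13 (Zfp36l1), 0.19 (Zfp622), 0.24 (Zfp664), 0.0437 (Zfp217), 0.10 (Zfp516), 0.22 (Zfp407), 0.0918 (Zfp568) and 0.15 (Zfp281), and with quantile normalization 0.0728 (Zfp407). With the mean of all probe sets they became -0.83 (Zfp207), -0.14 (Zfp236) and -0.0001 (Zfp553), and with array weights 0.0196 (Zfp622) and 0.0777 (Zfp664). With 1 culture left out those that changed sign ranged over -0.15 to 0.0064 (Zfp622), -0.0883 to 0.0423 (Zfp664), -0.41 to 0.0858 (Zfp516), -0.27 to 0.20 (Zfp407) and -0.31 to 0.0922 (Zfp281).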

Other observations

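The 51 Zfp genes under the level limit had a median difference of -0.19 between transgenic and non-transgenic cultures, with 35 of 51 below 0. Of the 27 probe sets that name a Zfp gene together with other genes, 13 lay above the limit, 9 of them below 0, with a median difference of -0.21.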
